A study of Homo sapiens with 29 samples.

Results

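The cytosolic ribosomal protein genes are the genes whose products, with ribosomal RNA, build the large (RPL) and small (RPS) subunits of the ribosome outside the mitochondria. They were taken from the count table by symbol, as RPL or RPS followed by a number and at most a final A, X or L, together with RPLP0, RPLP1, RPLP2 and RPSA, leaving out pseudogenes. The rule gave 81 genes of the 28266 in the table, 49 of the large and 32 of the small subunit. Expression was measured by RNA sequencing of polyadenylated RNA from the human fibroblast line IMR90 ER:RAS, which is derived from lung and was transduced with a retrovirus for an oncogenic RAS fused to the estrogen receptor. 4-hydroxytamoxifen (4OHT) activates the fusion and brings the cells into oncogene-induced senescence. Small interfering RNA (siRNA) was given the day before induction, and RNA was collected on day 7.

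All groups carry ER:RAS. The group DMSO_siNT received the solvent DMSO and non-targeting siRNA, 4OHT_siNT received 4OHT and non-targeting siRNA, and 4OHT_siSMARCA4 received 4OHT and siRNA against SMARCA4, the ATPase of the SWI/SNF chromatin remodelling complex. Each group held 6 libraries. The siRNAs carried the number 2 in 3 libraries of each group and the number 4 in the other 3. Non-targeting and SMARCA4 siRNAs with the same number are different reagents and share only the number. A library is named below by its siRNA number and its set, a digit followed by V or VM, whose meaning the labels do not give. All 4OHT_siNT libraries came from VM sets, while DMSO_siNT and 4OHT_siSMARCA4 held both V and VM sets. Comparisons of all libraries with 4OHT_siNT therefore cannot fully separate group from set letters. A library of 4OHT_siSMARCA4 with siRNA 2 is named for a VM set in the count table but matches no sample title, so it was used without a set and is in none of the results for VM sets. The labels do not say that the libraries came from separate cultures, so p-values measure the spread between these samples, which may be technical. Libraries held 9657309 to 18039313 counts. The SMARCA4 level was 217 ± 15.3 counts-per-million (CPM; SD, n = 6) in DMSO_siNT, 301.5 ± 20.9 in 4OHT_siNT and 99.0 ± 27.6 in 4OHT_siSMARCA4. All 10 fibroblast markers were above 1 CPM in every group, and epithelial and leukocyte marker sums were at most 2.39 CPM in any library. Endothelial marker sums were 1.36 to 2.63 CPM in DMSO_siNT, 4.14 to 6.17 CPM in 4OHT_siNT and 1.73 to 7.35 CPM in 4OHT_siSMARCA4.

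The library 4-2V of DMSO_siNT stood apart in the ribosomal protein genes. It gave them 10.54% of its counts, while the other 17 libraries gave them 3.109% to 5.71%. The comparisons between groups are therefore given with and without this library.

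Ribosomal protein mRNAs are among the most abundant in a growing cell. Most begin with a terminal oligopyrimidine (TOP) tract, a run of C and T (U in the RNA) that starts with C at the cap, through which the mTORC1 kinase and the cap-binding protein LARP1 set how many of these mRNAs are translated or stored. MYC and RNA polymerase I drive other steps of ribosome production. Several members have roles outside the ribosome, such as RPL5 and RPL11, which bind the p53 inhibitor MDM2 when assembly is disturbed.

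The start sites of the members the results turn on are shown to give the sequence that marks this gene class. Each window holds 30 bases, 15 on either side of the RefSeq start in GRCh38.p14, on the gene's own strand. Capitals mark a run of at least 5 pyrimidines (C or T) that begins with C within 5 bases of the start. The first 3 genes, RPSA, RPL22 and RPS23, had lower mRNA levels in 4OHT_siNT than in DMSO_siNT in each of the 5 selections of libraries described below. RPL39 and RPS27L were higher in 4OHT_siSMARCA4 than in 4OHT_siNT in some selections, and RPS27 is the partner of RPS27L. RPL10 and RPLP0 stand for members without and with a run that were lower in 4OHT_siNT in 4 of 5 selections.
RPSA: tttcctgccgcctgtCTTTTCCgtgctacc
RPL22: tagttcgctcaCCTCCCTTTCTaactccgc
RPS23: tcctgcggtgCTTCTCTCTTTCgctcaggc
RPL39: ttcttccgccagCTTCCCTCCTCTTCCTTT
RPS27: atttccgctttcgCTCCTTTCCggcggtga
RPS27L: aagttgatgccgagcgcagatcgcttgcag
RPL10: tttttccactctcagaaatatacgtctgtc
RPLP0: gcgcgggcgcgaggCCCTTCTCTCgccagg

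These windows lie at chr3:39406705-39406734 (plus strand) for RPSA, chr1:6199581-6199610 (minus) for RPL22, chr5:82278340-82278369 (minus) for RPS23, chrX:119791616-119791645 (minus) for RPL39, chr1:153990747-153990776 (plus) for RPS27, chr15:63157463-63157492 (minus) for RPS27L, chrX:154398050-154398079 (plus) for RPL10 and chr12:120201097-120201126 (minus) for RPLP0. The bases from the start on belong to the first exon. The run of RPL39, 22 bases long, continued past its window. RPS27 and its paralog RPS27L differed in that a run stood at the start of RPS27 and not at that of RPS27L. Of the members, 64 had a start in the RefSeq table, and 50 of these (78.1%) held such a run, against 21.1% of all 35116 starts. A run of 8 or more stood at 62.5% of the members' starts and at 5.37% of all starts. Among genes of the mitochondrial ribosome, which is built from another set of proteins, the share with a run was 21.7%. For the members and the mitochondrial genes only the first listed start of each gene was read, while the share of all starts counted every listed start. These shares are therefore not strictly alike, and a gene without a run at the start read may have one at another. A match describes the letters in the window only, and an annotated start can lie some bases from the one used in these cells.

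Levels of the members spanned a wide range. RPL3L and RPL10L, paralogs of RPL3 and RPL10, had 0 counts in every library, and RPL36A had 1 to 20 counts a library. The other 78 members, 46 of the large and 32 of the small subunit, passed the filter on low counts and were tested. Per kilobase of median annotated transcript length and over the 17 libraries without 4-2V, RPLP1, a protein of the ribosomal stalk, had the highest level at 2064 ± 314 CPM per kilobase (SD over libraries). RPS18 (1514 ± 247), RPS19 (1394 ± 310) and RPL37A (1331 ± 264) followed and differed from each other by less than their spread. The lowest members that passed were RPL39L at 4.89, RPL17 at 10.3 and RPS10 at 15.4 CPM per kilobase. RPL17 and RPS10 share exons with annotated read-through transcripts and RPL36A does too, so their counts are uncertain. Many members have processed pseudogenes with near-identical sequence, up to 133 named ones for RPL21, and the levels of such members depend on how reads with several matches were counted, which is not given in the sources used here.

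As a share of all counts, the members took 5.33% ± 2.66 in DMSO_siNT, 3.60% ± 0.222 in 4OHT_siNT and 3.76% ± 0.468 in 4OHT_siSMARCA4 (SD, n = 6 each). In DMSO_siNT the 3 libraries with siRNA 2 were at 4.128%, 3.851% and 3.527%, and those with siRNA 4 were at 10.54% (4-2V), 4.212% (4-2VM) and 5.71% (4-3VM). In 4OHT_siNT the lowest, median and highest libraries were at 3.263%, 3.654% and 3.829%. In 4OHT_siSMARCA4 they were at 3.109%, 3.924% and 4.199%. The 3 groups overlapped, and without 4-2V the DMSO_siNT mean was 4.29% ± 0.84 (n = 5). A share is relative to the rest of the RNA, and in bulk samples fewer cells of a type and less RNA per cell cannot be told apart.

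**Figure D1:**
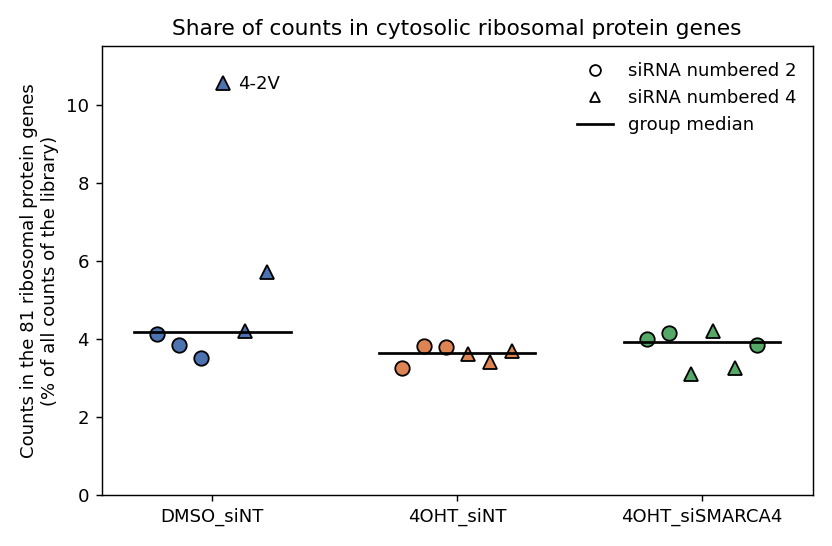
Percentage of each library's counts (vertical axis) that fell in the 81 ribosomal protein genes, by group; circles are libraries with siRNA 2, triangles libraries with siRNA 4, and lines group medians. The DMSO_siNT library 4-2V lies at 10.54%, above all other libraries, and the remaining libraries of the 3 groups overlap.

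The comparison of 4OHT_siNT with DMSO_siNT asks how oncogenic RAS activation changed the members. With all 18 libraries in the edgeR quasi-likelihood fit, 35 members were called lower and 1 higher at a Benjamini-Hochberg adjusted p under 0.05, where 28.9% of the 13136 genes tested were lower and 23.9% higher. The median log2 fold change of the members was -0.57, and that of all genes tested was -0.05. Without 4-2V, 17 members were lower and 1 higher, the median was -0.15, and the background was 30.3% lower and 27.9% higher. The share of members called lower (17 of 78) was then not above that of all genes. Of the 10 fibroblast markers, 8 were lower and 1 higher in the same fit, with sums of 11560 to 31420 CPM in DMSO_siNT and 15040 to 19930 CPM in 4OHT_siNT, and both endothelial markers that could be tested were higher with and without 4-2V. The part of these markers in the members' values was not tested.

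The size and direction of this difference moved with the control libraries used. Among the 11 libraries of VM sets, 19 members were lower and 0 higher (1 of 3 DMSO_siNT libraries there was 4-3VM), with a median of -0.23 and a background of 27.9% lower and 25.6% higher. Among the 9 libraries with siRNA 4, which include both 4-2V and 4-3VM, 26 were lower and 0 higher, with a median of -0.95 and a background of 19.4% and 16.2%. Among the 9 libraries with siRNA 2, 6 were lower and 9 higher, the median was -0.0044, and the background was 28.9% lower and 28.4% higher. Those higher there included RPL17, RPL23A and RPS27A. RPL23A and RPS27A were called lower in other selections and higher in this one. Over the 5 selections, 39 of the 78 members had a negative log2 fold change in each, 1 had a positive one in each, and 4 were called lower in each. The selections share libraries. Counts over the 5 selections were not taken for all genes, here or in the comparisons below, so no background stands beside them.

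**Figure D2:**
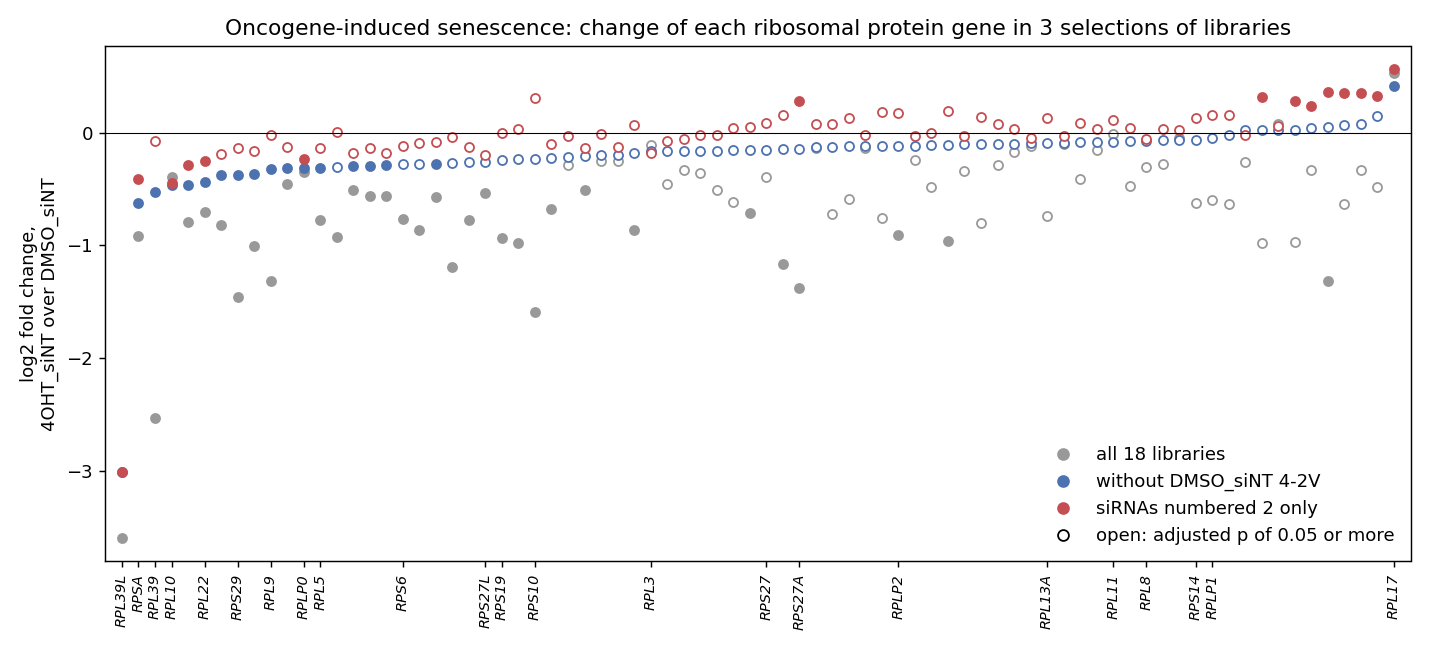
Log2 fold change of 4OHT_siNT over DMSO_siNT (vertical axis) of each of the 78 tested members, ordered along the horizontal axis by the value without 4-2V and with some genes labelled, from all 18 libraries (grey), without DMSO_siNT 4-2V (blue) and from libraries with siRNA 2 (red); filled points had an adjusted p under 0.05. The grey points have a median of -0.57, the blue ones of -0.15 and the red ones of -0.0044.

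Members of both subunits were called. Without 4-2V, 11 large subunit members were lower and 1 was higher of 46 (median -0.14), and 6 small subunit members were lower and 0 higher of 32 (median -0.16). With all libraries the counts were 22 lower and 1 higher for the large subunit and 13 lower and 0 higher for the small. Called members were found with and without a pyrimidine run at the start. Without 4-2V, 6 of the 49 tested members with a run were lower (median -0.12), as were 4 of the 13 without one (median -0.16), and 7 of the 16 that had no start in the table (median -0.24).

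The 4 members lower in 4OHT_siNT than in DMSO_siNT in all 5 selections were RPL39L, RPSA, RPL22 and RPS23. RPL39L, a paralog of RPL39 that is best known from testis, changed most. Its lowest, median and highest levels were 7.0, 9.07 and 34.9 CPM in DMSO_siNT, 0.739, 0.994 and 1.38 CPM in 4OHT_siNT, and 0.945, 1.90 and 2.85 CPM in 4OHT_siSMARCA4. The highest value came from 4-2V, the other DMSO_siNT libraries were at or below 9.54 CPM, and every DMSO_siNT library was above every 4OHT library. With all libraries edgeR put 4OHT_siNT over DMSO_siNT at a log2 fold change of -3.60 ± 0.40 (SE, adjusted p = 3.77e-07), and without 4-2V at -3.01 ± 0.23 (adjusted p = 5.45e-10). With siRNA 2 it was -3.02 ± 0.32.

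RPSA, a small subunit protein that also serves as the laminin receptor, was at 439, 521 and 1222 CPM (lowest, median, highest) in DMSO_siNT, at 312, 346 and 366 CPM in 4OHT_siNT and at 266, 339 and 364 CPM in 4OHT_siSMARCA4. The DMSO_siNT libraries other than 4-2V reached 723 CPM, and all 6 lay above all 4OHT libraries. The log2 fold change was -0.92 ± 0.20 (edgeR adjusted p = 0.000714), and -0.63 ± 0.11 (adjusted p = 8.65e-05) without 4-2V. It was smallest with siRNA 2, at -0.41 ± 0.09 (adjusted p = 0.00206).

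RPL22, a large subunit protein, was at 106, 111 and 260 CPM in DMSO_siNT, at 72.4, 86.8 and 95.2 CPM in 4OHT_siNT and at 79.7, 89.5 and 93.2 CPM in 4OHT_siSMARCA4. Its DMSO_siNT range did not overlap that of either 4OHT group, and without 4-2V reached 151 CPM. Between 4OHT_siNT and DMSO_siNT the log2 fold change was -0.71 ± 0.18 (edgeR adjusted p = 0.00251), and -0.44 ± 0.09 (adjusted p = 0.000391) without 4-2V. RPS23, which lies at the decoding centre of the small subunit, was at 244, 266.5 and 714 CPM in DMSO_siNT, at 178, 205 and 221 CPM in 4OHT_siNT and at 184, 242 and 266 CPM in 4OHT_siSMARCA4. DMSO_siNT lay above 4OHT_siNT in every library and overlapped 4OHT_siSMARCA4. Its log2 fold change was -0.80 ± 0.21 (edgeR adjusted p = 0.00404), and -0.46 ± 0.11 (adjusted p = 0.00113) without 4-2V.

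**Figure D3:**
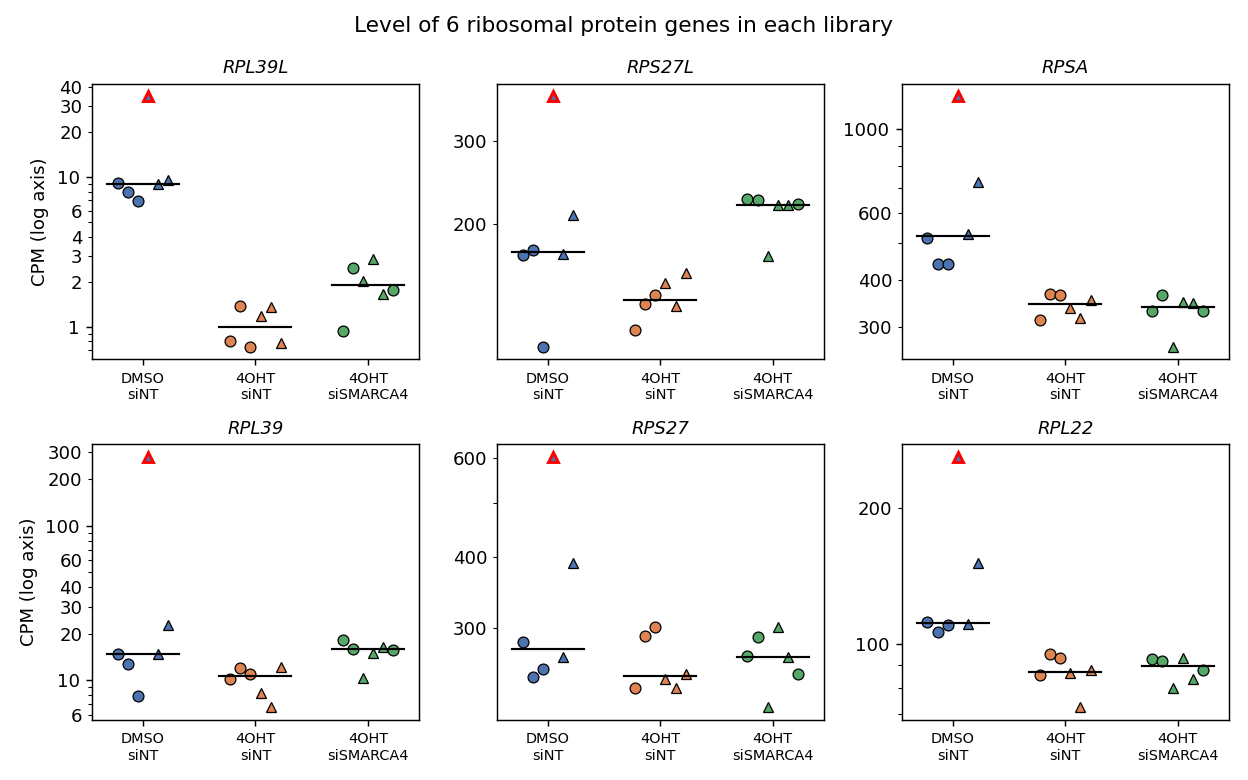
Level in CPM (vertical axes, logarithmic) of RPL39L, RPS27L, RPSA, RPL39, RPS27 and RPL22 in each library by group; circles are libraries with siRNA 2, triangles with siRNA 4, lines group medians, and DMSO_siNT 4-2V is outlined in red. RPL39L falls from a median of 9.07 CPM in DMSO_siNT to 0.994 CPM in 4OHT_siNT, and 4-2V is the highest DMSO_siNT library in each panel.

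RPL10 and RPLP0 were lower in 4 of the 5 selections, siRNA 4 being the exception. RPL10, a late-joining protein of the large subunit, went against the pattern of 4-2V, where it was at 363 CPM while the other DMSO_siNT libraries held 449.5 to 618.6 CPM. In 4OHT_siNT it was at 340, 396 and 412 CPM and in 4OHT_siSMARCA4 at 332, 385.5 and 444 CPM (lowest, median, highest). The log2 fold change of 4OHT_siNT over DMSO_siNT was -0.39 ± 0.12 (edgeR adjusted p = 0.0096) with all libraries and -0.47 ± 0.09 (adjusted p = 0.000249) without 4-2V. RPLP0, the base of the stalk and a common reference gene in quantitative PCR, was at 911, 1022 and 1296 CPM in DMSO_siNT, at 739, 853 and 866 CPM in 4OHT_siNT and at 685, 840 and 905 CPM in 4OHT_siSMARCA4. Its DMSO_siNT libraries were all above the others, and the log2 fold change was -0.35 ± 0.11 (edgeR adjusted p = 0.00842), and -0.31 ± 0.10 (adjusted p = 0.00895) without 4-2V.

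Of the other stalk proteins, RPLP2 was called lower with all libraries and not without 4-2V, and RPLP1 was called in neither fit. RPLP2 had a log2 fold change of -0.91 (edgeR adjusted p = 0.0474) with all libraries and of -0.12 (adjusted p = 0.516) without it, since 4-2V held 2473 CPM where the DMSO_siNT median was 434 CPM. RPLP1 was at -0.60 (edgeR adjusted p = 0.0922) and at -0.05 (adjusted p = 0.758).

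Of the MDM2-binding pair, RPL5 was called lower with and without 4-2V, and RPL11 was called in neither fit. RPL5 was at 551, 657 and 2132 CPM in DMSO_siNT, at 483, 528 and 576 CPM in 4OHT_siNT and at 414, 600 and 652 CPM in 4OHT_siSMARCA4. Its log2 fold change in 4OHT_siNT over DMSO_siNT was -0.77 ± 0.26 (edgeR adjusted p = 0.0182), and -0.31 ± 0.12 (adjusted p = 0.0281) without 4-2V. The DMSO_siNT and 4OHT_siNT ranges of RPL5 overlapped. RPL11 was at 508, 629 and 936 CPM, 606, 669 and 708 CPM, and 428, 647 and 699 CPM in the 3 groups, which overlapped throughout. Its log2 fold change was -0.02 (edgeR adjusted p = 0.931), and -0.08 (adjusted p = 0.598) without 4-2V. The difference between the genes was not tested.

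Among the other members with a known role of their own, most calls were lost without 4-2V. RPS6, the substrate of S6 kinase, went from -0.77 (edgeR adjusted p = 0.024) to -0.28 (adjusted p = 0.061), and was called lower in VM sets, at -0.35 (adjusted p = 0.0395). RPS19, mutated in Diamond-Blackfan anaemia, went from -0.94 (edgeR adjusted p = 0.0348) to -0.24 (adjusted p = 0.246). RPS27A, made as a fusion with ubiquitin, went from -1.38 (edgeR adjusted p = 0.0268) to -0.15 (adjusted p = 0.496) and was called higher with siRNA 2, at 0.28 (adjusted p = 0.0402).

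RPL13A, a frequent reference gene with the highest mean CPM of all members, was at 1253, 1496 and 6767 CPM in DMSO_siNT and at 1314, 1453 and 1571 CPM in 4OHT_siNT. It was not called with all libraries or without 4-2V (edgeR adjusted p = 0.0636 and 0.566), and neither was RPS14, the small subunit protein lost in the 5q- syndrome (adjusted p = 0.0837 and 0.682). The next highest members by mean CPM were RPS6 and RPL8, and RPL8 was not called with all libraries (adjusted p = 0.135). RPS29 and RPL9 had among the largest falls, at -1.46 and -1.32, and remained lower at -0.37 (edgeR adjusted p = 0.0257) and -0.32 (adjusted p = 0.0458) without 4-2V. RPS10 went from -1.59 (edgeR adjusted p = 0.0241) to -0.23 (adjusted p = 0.435).

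RPL17, a large subunit protein near the exit tunnel, was the 1 member called higher with all libraries and without 4-2V. It was at 2.99, 5.84 and 7.57 CPM in DMSO_siNT, at 6.70, 8.44 and 8.86 CPM in 4OHT_siNT and at 7.29, 7.96 and 8.56 CPM in 4OHT_siSMARCA4. 4-2V was its lowest library, and DMSO_siNT overlapped 4OHT_siNT. Its log2 fold change was 0.52 (edgeR adjusted p = 0.0118), 0.41 (adjusted p = 0.0102) without 4-2V and 0.36 (adjusted p = 0.0782) in VM sets. Its low level, its 49 named pseudogenes and its shared exons make the value uncertain.

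In 4-2V, 72 of the 78 tested members were higher than the mean of the other 5 DMSO_siNT libraries, 55 by more than 2-fold and 25 by more than 4-fold, and 64 were above every other library of the series. The median log2 ratio was 1.45 for the members and -0.11 for the 13058 other genes tested, of which 13.8% were more than 2-fold higher. RPL39, a small protein at the exit tunnel of the large subunit, was highest at 19.2-fold (279 CPM), followed by RPS10, RPL23A and RPS27A at log2 ratios of 3.40, 3.38 and 3.18. The members that were lowest relative to the other libraries were RPL17 at -1.04, RPL10 at -0.57, RPL11 at -0.46 and RPL3 at -0.40. Across the 78 members the log2 ratio had a Spearman correlation of -0.32 with median transcript length, and across 12471 other genes it was -0.29. These points share 1 library and its depth, so the correlations are descriptions. Medians were 1.76, 1.55 and 1.15 in the shortest, middle and longest members (26 each). Mitochondrial ribosomal protein genes had a median log2 ratio of 0.78 and ribosome assembly factor genes one of 0.04. Translation factor and other genes with a known TOP start, noncoding RNA genes among them, had one of 0.84. The DMSO_siNT library 4-3VM went the same way to a lesser degree. All 78 members were higher in it than the mean of the 4 libraries left, with a median log2 ratio of 0.57 (0.20 to 0.91). 4-2V also had the fewest counts, 9657309, yet the most genes with a count, 17915, where the other libraries had 16888 at most. The part of depth, of the range of genes detected and of transcript length in these ratios was not tested.

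**Figure D4:**
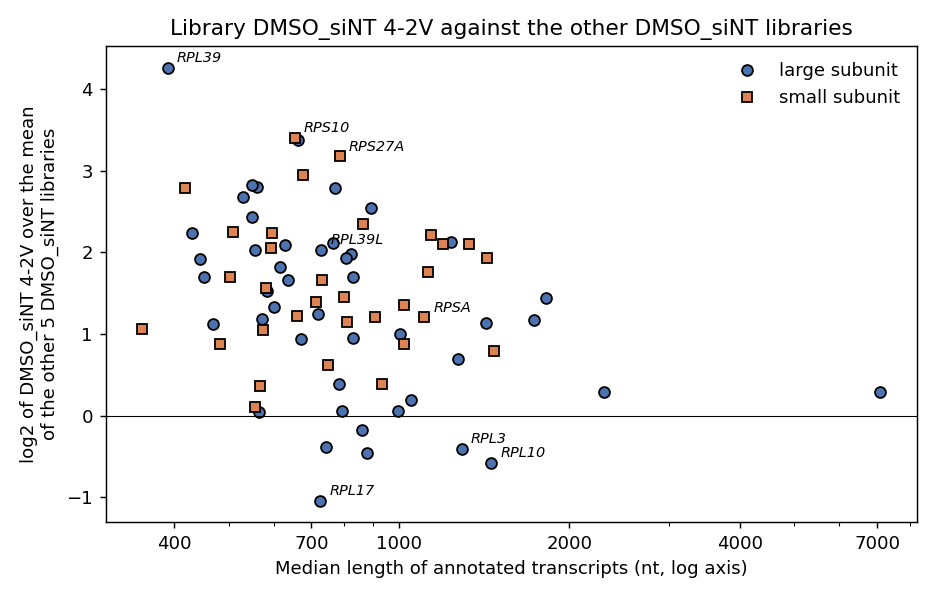
Log2 ratio of DMSO_siNT 4-2V over the mean of the other 5 DMSO_siNT libraries (vertical axis) against median annotated transcript length in nucleotides (horizontal axis, logarithmic) for the 78 tested members, coloured by subunit. Members above 0 number 72 of 78, and the ratios reach 4.26 for RPL39.

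The comparison of 4OHT_siSMARCA4 with 4OHT_siNT asks what SMARCA4 knockdown changed in cells with active RAS. Over all libraries the median difference of the members was close to 0, and it differed between the selections given below. With all 18 libraries edgeR called 0 of the 78 members (2 had an unadjusted p under 0.05, and DESeq2 called 1, RPS27L), against a background of 4.99% higher and 5.65% lower, and the median log2 fold change was 0.03 for the members and 0.01 for all genes. Without 4-2V, which adds to the spread shared by all groups, 3 members were called higher (RPL39L, RPS27L and RPL39) and 0 lower, with a median of 0.03 and a background of 11.7% higher and 12.9% lower. The 95% confidence interval of the log2 fold change lay within ±0.5 for 71 of the 78 members in this fit and for 37 with all libraries. Fibroblast markers, which summed to 15040 to 19930 CPM in 4OHT_siNT, summed to 8705 to 12710 CPM in 4OHT_siSMARCA4, and their part in these values was not tested.

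**Figure D5:**
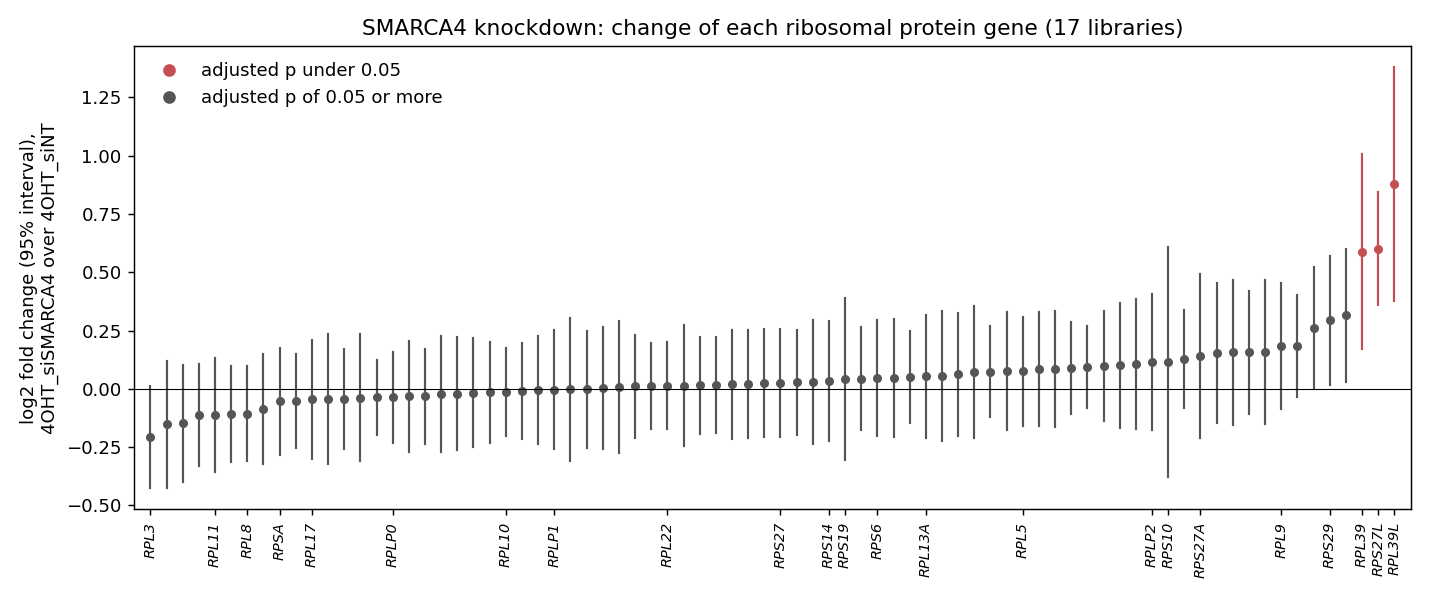
Log2 fold change of 4OHT_siSMARCA4 over 4OHT_siNT (vertical axis) with its 95% confidence interval for each of the 78 tested members, ordered along the horizontal axis by that value and with some genes labelled, from the 17 libraries without DMSO_siNT 4-2V; red marks an adjusted p under 0.05. RPL39L, RPS27L and RPL39 lie at the right end at 0.88, 0.60 and 0.59, and 71 intervals fall within ±0.5.

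Counts were also taken for each siRNA number, setting SMARCA4 siRNA against the non-targeting siRNA of the same number. With siRNA 2, 7 members were called higher (RPL24, RPL34, RPL35A, RPL39, RPS23, RPS27L and RPS29) and 0 lower, with a median of 0.14, against a background of 11.8% higher and 13.9% lower. With siRNA 4, edgeR called 0 members, and 0 had an unadjusted p under 0.05, with a median of -0.08, but only 0.0151% of all genes were called in either direction (0.0151% higher and 0.0151% lower), in a fit that included 4-2V. In VM sets 2 members were higher, RPL39L and RPS27L, with a median of 0.18 and a background of 8.76% higher and 12.2% lower. The only 4OHT_siSMARCA4 libraries there were 2-3VM and 4-2VM, so all values of this group in VM sets rest on them. Members with a positive log2 fold change numbered 69 of 78 with siRNA 2, 19 with siRNA 4, 74 in VM sets and 55 with all libraries. Those with an unadjusted p under 0.05 numbered 20, 0, 6 and 2. Over the 5 selections no member was called in each, 17 had a positive log2 fold change in each and 1 had a negative one.

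Within the knockdown cells the siRNAs were compared directly. Libraries with siRNA 2 had members higher than those with siRNA 4 by a median log2 difference of 0.20 (-0.31 to 0.63), and edgeR called 0 members, 0 of them with an unadjusted p under 0.05, where 0.00732% of all genes were called. Without 4-2V, 10 members had an unadjusted p under 0.05 and 0 were called. In 4OHT_siNT the corresponding median was -0.01 (-0.23 to 0.30), edgeR called 0 members with 0 under an unadjusted p of 0.05, and 0.0732% of all genes were called. V against VM libraries of 4OHT_siSMARCA4 differed by a median of -0.25, with 0 members called by edgeR, 7 at an unadjusted p under 0.05 and 1.62% of all genes called (without DMSO_siNT 4-2V). Among the V libraries of 4OHT_siSMARCA4, 4-2V and 4-3V carried siRNA 4 and 2-3V carried siRNA 2. The differences by siRNA and by set letters in this group therefore cannot be fully told apart. In DMSO_siNT, V against VM libraries differed by a median of 0.53 with 4-2V, a V library, and of -0.23 without it. edgeR called 0 members in both fits. Members with an unadjusted p under 0.05 numbered 19 and 1, where 0.324% and 0.862% of all genes were called. The V libraries left without 4-2V, 2-1V and 2-2V, carried siRNA 2.

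The 3 members called higher after SMARCA4 knockdown without 4-2V include 2 paralogs, while 0 members were called with all libraries. RPS27L, a p53-induced paralog of RPS27, was at 171, 220 and 227 CPM (lowest, median, highest) in 4OHT_siSMARCA4, at 119.6, 138.7 and 157.5 CPM in 4OHT_siNT and at 110.4, 174.7 and 373 CPM in DMSO_siNT. Every 4OHT_siSMARCA4 library was above every 4OHT_siNT library, while DMSO_siNT overlapped both. The log2 fold change over 4OHT_siNT was 0.61 ± 0.19 (edgeR adjusted p = 0.0503) with all libraries, 0.60 ± 0.12 (adjusted p = 0.00101) without 4-2V and 0.65 ± 0.17 (adjusted p = 0.0139) in VM sets. Its partner RPS27 was at 217, 267 and 301 CPM in 4OHT_siSMARCA4 and at 235, 246 and 301 CPM in 4OHT_siNT, which overlapped, with a log2 fold change of 0.03 with all libraries and without 4-2V (edgeR adjusted p = 0.938 and 0.895).

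RPL39L, at 0.945 to 2.85 CPM in 4OHT_siSMARCA4 and 0.739 to 1.38 CPM in 4OHT_siNT, overlapped between these groups. Its raw counts were 12 to 36 a library in 4OHT_siSMARCA4 and 10 to 20 in 4OHT_siNT, so counting error is large. Its log2 fold change was 0.89 ± 0.42 (edgeR adjusted p = 0.195) with all libraries, 0.88 ± 0.24 (adjusted p = 0.0117) without 4-2V and 1.32 ± 0.29 (adjusted p = 0.00473) in VM sets. The level after knockdown stayed below that in DMSO_siNT, at a log2 fold change of -2.13 (edgeR adjusted p = 3.02e-08, without 4-2V). RPL39 was at 10.3, 15.8 and 18.1 CPM in 4OHT_siSMARCA4, at 6.69, 10.6 and 12.2 CPM in 4OHT_siNT, and at 7.86, 14.7 and 279 CPM in DMSO_siNT, where all but 4-2V were at or below 22.6 CPM. The groups overlapped, and the log2 fold change after knockdown was 0.60 ± 0.68 (edgeR adjusted p = 0.646), and 0.59 ± 0.20 (adjusted p = 0.0362) without 4-2V. For 4OHT_siNT over DMSO_siNT, RPL39 was at -2.53 ± 0.70 (edgeR adjusted p = 0.0052) with 4-2V and at -0.53 ± 0.21 (adjusted p = 0.0348) without it.

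RPL22L1, the paralog of RPL22 whose symbol falls outside the rule, rose after knockdown without 4-2V. Its mean was 88.0 ± 15.5 CPM in 4OHT_siSMARCA4 and 56.8 ± 8.26 CPM in 4OHT_siNT (SD, n = 6), a log2 fold change of 0.62 ± 0.14 (edgeR adjusted p = 0.00265), or 0.63 ± 0.31 (adjusted p = 0.21) with all libraries. RPL22 itself was at 0.01 and 0.02 in the same fits (edgeR adjusted p = 0.933 and 0.956). RPL3 and RPL10, whose paralogs had 0 counts, were not called after knockdown. Of the 4 members lower with RAS in all selections, RPSA was at -0.05 after knockdown (edgeR adjusted p = 0.764) and RPS23 at 0.18 (adjusted p = 0.206) without 4-2V, and RPS23 was called higher with siRNA 2, at 0.24 (adjusted p = 0.0408).

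4OHT_siSMARCA4 was also set against DMSO_siNT, a comparison that shares its control libraries with that of 4OHT_siNT. With all libraries 29 members were lower and 1 higher (median -0.52, background 27.3% lower and 23.3% higher). Without 4-2V, 11 were lower and 3 higher (median -0.13, background 30.5% lower and 28.7% higher), the higher ones being RPL17, RPS13 and RPS27L. In VM sets 4 were lower and 0 higher (RPL10, RPL22, RPL39L and RPSA; background 23.5% and 20.4%). With siRNA 2, 5 were lower and 23 higher, against a background of 31.2% and 29.9%, and with siRNA 4, 32 were lower and 0 higher, against 17.2% and 14%. RPL22, RPL39L and RPSA were lower in all 5 selections, and RPL21, RPL26, RPL34, RPL39, RPS10 and RPS27A were called in both directions in different selections. RPL3, which forms part of the peptidyl transferase centre, was lower at -0.31 (edgeR adjusted p = 0.0462) with all libraries and at -0.37 (adjusted p = 0.00609) without 4-2V.

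Other genes of ribosome production were followed as lists. Values are without 4-2V unless stated, where 27.9% of all genes were higher and 30.3% lower with RAS (4OHT_siNT over DMSO_siNT), and 11.7% were higher and 12.9% lower after knockdown (4OHT_siSMARCA4 over 4OHT_siNT). Of 7 further cytosolic ribosomal protein genes, RPL26L1 (log2 fold change -0.51, edgeR adjusted p = 0.00334) and RPL36AL (-0.45, adjusted p = 0.0386) were lower with RAS, also with all libraries, and after knockdown RPL22L1 was the 1 called. The list of 25 genes with a known TOP start held translation factors, other protein-coding genes and noncoding RNAs. Of these, 3 were higher and 5 lower with RAS (2 and 8 with all libraries), and 1 was higher and 2 lower after knockdown (0 and 0 with all libraries). EEF1A1, the elongation factor that carries aminoacyl-tRNA, was at -0.44 (edgeR adjusted p = 0.000216) with RAS. EEF2, the translocation factor, was at 0.28 (edgeR adjusted p = 0.0136) with RAS and at -0.35 (adjusted p = 0.00593, and 0.23 with all libraries) after knockdown.

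Of 40 ribosome assembly factor genes, 15 were higher and 4 lower with RAS (13 and 5 with all libraries), among them RRP12 at 0.93 (edgeR adjusted p = 1.38e-07), the helicase gene DDX10 at 0.95 (adjusted p = 2.63e-06) and RRS1 at -0.75 (adjusted p = 0.000199). After knockdown 3 were higher and 1 lower (1 and 0 with all libraries). Of 15 RNA polymerase I genes, 4 were higher and 5 lower with RAS (4 and 6 with all libraries), and 3 were higher and 2 lower after knockdown (0 and 0 with all libraries). POLR1B, its second largest subunit, was at 0.92 (edgeR adjusted p = 2.36e-07) with RAS, and POLR1G, another subunit, was at -0.50 (adjusted p = 0.0403). Of 77 mitochondrial ribosomal protein genes, 22 were higher and 11 lower with RAS without 4-2V, while 9 were higher and 12 lower with all libraries. After knockdown 11 of them were higher and 0 lower (4 and 0 with all libraries).

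Of 19 tested genes of MYC and the mTORC1-LARP1 axis, 6 were higher and 3 lower with RAS (6 and 4 with all libraries), and 3 were higher and 5 lower after knockdown (0 and 1 with all libraries, the 1 being SESN3). MYC was at 0.59 (edgeR adjusted p = 2.33e-05) with RAS and at -0.43 (adjusted p = 0.00204, and 0.0608 with all libraries) after knockdown. The mTORC1 inhibitor gene DDIT4 was at 1.45 (edgeR adjusted p = 1.1e-05) with RAS, and SESN3, another one, was at -1.69 (adjusted p = 5.5e-06) with RAS and at -1.71 (adjusted p = 0.00024) after knockdown. After knockdown TSC2, part of the complex that restrains mTORC1, was at -0.52 (edgeR adjusted p = 0.00327, and 0.0509 with all libraries), and EIF4EBP1, a translation repressor under mTORC1, was at 0.35 (adjusted p = 0.00899, and 0.366 with all libraries).

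Of 5 genes around p53, 2 were higher and 1 lower with RAS (2 and 0 with all libraries), and 1 was higher and 2 lower after knockdown (0 and 2 with all libraries). CDKN1A and CDKN2A, both inhibitors of the cell cycle, rose with RAS by 1.23 (edgeR adjusted p = 4.84e-11) and 1.21 (adjusted p = 5.25e-07) and fell after knockdown, at -0.40 (adjusted p = 0.000649) and -0.65 (adjusted p = 0.00189). MDM2, the p53 inhibitor that RPL5 and RPL11 bind, was at 0.31 after knockdown (edgeR adjusted p = 0.0298, and 0.154 with all libraries).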

How the data were processed

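Per the labels and the study's methods, stranded libraries were prepared from polyadenylated RNA, sequenced and aligned to hg38 with STAR 2.7.8a, and the submitters' processing notes name DESeq2 1.36.0. The counting program, its use of strand and its annotation are not given in the sources used here. The authors deposited raw counts per gene in 36 columns, 2 lanes for each of 18 libraries, which were summed. Of 29 samples in the labels, 17 matched a library, and a further one, whose columns name 4OHT_siSMARCA4, siRNA 2 and a VM set that no sample title with that siRNA carries, was used as a replicate without a set (the unlabelled library). Rows naming no gene numbered 0.

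Genes were filtered with filterByExpr (minimum count 10), which kept 13136 genes, scaled by TMM and fitted in edgeR 4.0.16 (R 4.3.3) with all 18 libraries in 1 quasi-likelihood model. Benjamini-Hochberg adjustment covered every gene tested. CPM are on the TMM scale, and SE were derived from the F statistic. Transcript lengths, overlaps and pseudogenes came from GENCODE 44 and start sites from RefSeq. The model was tested on simulated counts. The biological coefficient of variation was 23.3% with all libraries and 15.4% without 4-2V. Replicate pairs were checked for duplicated libraries, and none was found.

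Members, lists and tests were chosen with earlier results of these data known. Genes named were SMARCA4, paralog pairs, members with a role of their own, the 6 largest called rises and falls of each contrast, and the 3 highest and 3 lowest by mean CPM. Other members and list genes were named after their values were seen. Alternatives were other scalings, filters, DESeq2 1.42.0, limma 3.58.1 voom, subsets of libraries and each library left out.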

Additional observations from a re-analysis of the deposited data

Results flagged for a closer look

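Within each group of 6 libraries, the share of counts in the members and the log2 CPM of named members were screened with Dixon's criterion for a library far from the others. Of 72 groups of values, 23 met it, a criterion that 1 in 20 independent groups would meet by chance. That rate does not apply here, because the genes share libraries and some were named for large changes in these data. In 14 of the 23 the library was DMSO_siNT 4-2V. Its share was 10.54%, and its log2 CPM were 5.13 for RPL39L (nearest library 3.25), 8.13 for RPL39 (nearest 4.50), 11.06 for RPL5, 11.98 for RPS6, 11.8 for RPLP1, 11.27 for RPLP2, 12.72 for RPL13A, 11.71 for RPS27A, 11.37 for RPS14, 12.09 for RPS19, 6.85 for RPS10, 10.27 for RPS29 and 11.37 for RPL9, each the highest of DMSO_siNT.

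In 4OHT_siSMARCA4 the library 4-2V was the lowest for RPS27L at 7.42 (nearest 7.78), RPL39 at 3.37 (nearest 3.90), RPSA at 8.06 (nearest 8.37) and RPS29 at 6.81 (nearest 7.22), and 4-3V was the lowest for RPL3 at 9.24 (nearest 9.72). In 4OHT_siNT the library 2-1VM was the lowest for RPL10 at 8.41, RPLP0 at 9.53, RPLP1 at 9.62 and RPS14 at 9.17, all in log2 CPM.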

How the results depend on the processing

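Counts and medians of the members depended on the libraries more than on the software. The share of all genes called was not taken for most of these settings. A change in a count can therefore be that of the whole fit and not of the members. For 4OHT_siNT over DMSO_siNT, 36 members were called (median -0.57). Upper-quartile scaling gave 54, total counts as the scale 51, the set label as a replicate block 3, VM sets 19 (-0.23), siRNA 2 alone 15 (-0.0044), siRNA 4 alone a median of -0.95, only the groups compared 15 and an adjusted p under 0.01 gave 8. Leaving out each library gave 18 to 58 called and medians of -0.65 to -0.15. The lowest came without DMSO_siNT 4-2V, the highest without DMSO_siNT 2-2VM, and 23 were called without 4OHT_siNT 2-1VM and as many without 4OHT_siNT 4-2VM. Among alternatives chosen after seeing the data, DESeq2, scaling on other genes and the block, each without 4-2V, gave 18 (medians -0.14, -0.16 and -0.24), and voom with library weights gave 18 (-0.072).

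For 4OHT_siSMARCA4 over 4OHT_siNT, where 0 were called, total counts, DESeq2 and a filter of 1 count each gave 1, VM sets 2, siRNA 2 alone 7, only the groups compared 6, DESeq2 and scaling on other genes without 4-2V 3 each, the block without it 2 and voom 7. Leaving out each library gave 0 to 3 (medians -0.0042 to 0.08).

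For 4OHT_siSMARCA4 over DMSO_siNT, 30 were called. Upper-quartile scaling gave 49, a filter of 1 count 18, the block 3, VM sets 4 (-0.081), siRNA 2 alone 28 (0.14), siRNA 4 alone a median of -0.99, only the groups compared 5 and an adjusted p under 0.01 gave 5. Leaving out each library gave 10 to 55 (-0.63 to -0.13), with 10, 11 and 16 without 4OHT_siSMARCA4 4-2V, 4-3V and the unlabelled library, 14 without DMSO_siNT 4-2V, and 47 and 55 without DMSO_siNT 2-2V and 2-2VM. Without 4-2V, DESeq2 gave 16 (-0.12), scaling on other genes 14 (-0.13), the block 5 (-0.12), and voom on all libraries 13 (0.012).

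Over the named genes and all alternatives, 696, 780 and 626 of 816 values kept their side of the threshold and, where called in either fit, their direction in the 3 contrasts, in the order above. Named members that turned direction and were called in at least 1 of the fits compared did so as follows, in log2 fold change. With siRNA 2 alone, 4OHT_siNT over DMSO_siNT became 0.17 for RPLP2, 0.28 for RPS27A and 0.31 for RPS10, and 4OHT_siSMARCA4 over DMSO_siNT became 0.50 for RPL39, 0.023 for RPL5, 0.076 for RPS6, 0.41 for RPLP2, 0.31 for RPL13A, 0.48 for RPS27A, 0.31 for RPS14, 0.23 for RPS19, 0.56 for RPS10, 0.21 for RPS29 and 0.21 for RPL9. In the latter contrast RPL39 was also positive in VM sets (0.019) and without 4-2V (0.059, DESeq2 0.072, scaling on other genes 0.062; leaving out each library gave -2.16 to 0.059), and RPS27A in VM sets (0.023) and with DESeq2 without 4-2V (0.0079). With voom RPL39 was at 0.20, RPS27A at 0.23, RPS19 at 0.034, RPS10 at 0.14, RPS29 at 0.066 and RPL9 at 0.0053. The cause was not tested beyond the libraries each setting leaves out.

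Without the 5 members of highest level, the shares were 3.06% in 4OHT_siNT and 3.23% in 4OHT_siSMARCA4. Upper-quartile scaling moved the median of all genes from -0.05 to -0.13 in 4OHT_siNT over DMSO_siNT. Libraries of the same set were not treated as pairs. Of 15 same-set pairs between groups, 7 correlated above 0.1 (-0.37 to 0.43, median 0.053). Of 81 pairs from different sets, 33 did (median 0.0098). These correlations cannot show whether the sets were paired, which the labels do not say. Depth limits RPL17, RPS10 and RPL39L most, the lowest members tested.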

Other observations

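Pseudogenes were left out of the members. Of the 31 such lines in the table, 11 passed the filter, and these 2 were picked after their values were seen. RPLP0P2 was at a mean of 5.82 CPM in DMSO_siNT (17.5 CPM in 4-2V), 161.5 CPM in 4OHT_siNT and 150.8 CPM in 4OHT_siSMARCA4, and every 4OHT library (at least 128.3 CPM) was above every DMSO_siNT library. The log2 fold change of 4OHT_siNT over DMSO_siNT was 4.85 (edgeR adjusted p = 3.02e-09), and 5.53 ± 0.17 (adjusted p = 1.18e-15) without 4-2V, while its parent gene RPLP0 was lower. After SMARCA4 knockdown it was at -0.10 (edgeR adjusted p = 0.889). Reads that match RPLP0 as well could be split between the genes, so the level is uncertain.

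RPSAP52 was at a mean of 2.43 CPM in DMSO_siNT, 0.635 CPM in 4OHT_siNT and 1.69 CPM in 4OHT_siSMARCA4. Its log2 fold change was -1.90 (edgeR adjusted p = 1.32e-05) in 4OHT_siNT over DMSO_siNT and 1.40 (adjusted p = 0.00363) after knockdown, or -1.75 and 1.39 without 4-2V. Its counts were 3 to 37 a library, so counting error is large.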
